A study of Homo sapiens with 5 samples.

Results

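The genes described here are the 10 glycolytic enzymes HK1, HK2, GPI, PFKP, ALDOA, TPI1, GAPDH, PGK1, ENO1 and LDHA, chosen by gene symbol out of 19716 genes with a read in at least 1 library. All 10 were detected in all 5 libraries and passed every filter, with at least 1278 reads for each gene in each library. RNA was sequenced from HEK293T, a kidney-derived embryonic cell line with the SV40 large T antigen, harvested 48 h after transfection with 1 ug of plasmid. In 4 groups the cells received 5 gRNAs for the uPA promoter (the gene is PLAU) together with a nuclease-deficient Cas9 (dCas9) joined to a blue fluorescent protein (BFP) and to the catalytic domain of DNMT1, DNMT3A or DNMT3B, or to EGFP. The dCas9-BFP-EGFP fusion carries no methyltransferase. The control group received pUC19, a plasmid that encodes neither dCas9 nor gRNA. The fusions were expressed from a PGK promoter, in pools of transiently transfected cells. The labels state that BFP-positive cells were sorted in every group, whereas pUC19 encodes no BFP, so the control may have been collected differently, and sorting and the presence of a fusion cannot be told apart. Each group had 1 library, so no comparison below has a replicate of its groups.

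Glycolysis splits glucose into pyruvate in the cytosol and yields ATP and NADH. Hexokinase and phosphofructokinase consume ATP in the upper part of the pathway, whereas phosphoglycerate kinase and pyruvate kinase return it in the lower part. Lactate dehydrogenase then regenerates the NAD+ that the GAPDH step uses. Many steps are served by several isoenzymes encoded by separate genes, and proliferating cultured lines express the pathway at high levels.

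Totals, to the nearest 10000, ranged from 26250000 to 36140000 reads assigned to genes, with the largest in pUC19. The targeted gene PLAU was at 2.48 TPM (reads per unit of gene length, scaled to the same sum in each library) in pUC19 and at 0.0331 to 0.181 TPM in the fusion libraries. The DNMT1, DNMT3A and DNMT3B rows were highest in the library of the matching fusion, at 14581.5, 16745.1 and 33141 TPM, which includes the plasmid-encoded domains. Of 5 HEK293T markers, KRT8, KRT18, VIM and PAX2 were detected in all libraries at 6.08 TPM or more, and IRS4 was at 395.9 TPM in pUC19 and at 66.3 to 76.5 TPM with the fusions. Of 6 markers of other cell types, PTPRC, PECAM1, COL3A1, HBB and ALB stayed under 1 TPM, and COL1A1 was at 3.87 to 7.97 TPM, lowest with DNMT3A. Their part in the results was not tested.

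Among the 10 genes, only HK2 and LDHA had 2 copies of the palindrome CACGTG in a single promoter window. This motif is known as an E-box and is bound by several families of transcription factors. HK2 and LDHA also had the widest ranges below, and a link between the copies and the levels was not tested. The windows come from RefSeq (250 bases before to 50 after an annotated start, build GRCh38.p14), and all 10 genes had 1 or more, 24 windows in all. The 3 sequences below were shown because they hold the copies in HK2 and LDHA and the single copy in GAPDH, whose levels differed little between libraries. They give the first 240 bases of a window, 5′ to 3′ on the plus strand, with CACGTG in capitals, at the positions of their exact match in GRCh37.
HK2 (chr2:75062047-75062286): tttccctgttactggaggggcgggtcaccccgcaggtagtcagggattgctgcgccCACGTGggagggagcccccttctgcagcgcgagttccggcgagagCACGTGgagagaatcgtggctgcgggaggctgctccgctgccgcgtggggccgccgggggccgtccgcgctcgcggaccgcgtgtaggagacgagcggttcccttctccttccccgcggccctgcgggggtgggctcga
LDHA (chr11:18415860-18416099): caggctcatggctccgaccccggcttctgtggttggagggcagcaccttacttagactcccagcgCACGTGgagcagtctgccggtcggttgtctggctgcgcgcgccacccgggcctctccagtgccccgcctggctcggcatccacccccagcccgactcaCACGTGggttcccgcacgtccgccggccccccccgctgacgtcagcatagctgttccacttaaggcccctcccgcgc
GAPDH (chr12:6644180-6644419): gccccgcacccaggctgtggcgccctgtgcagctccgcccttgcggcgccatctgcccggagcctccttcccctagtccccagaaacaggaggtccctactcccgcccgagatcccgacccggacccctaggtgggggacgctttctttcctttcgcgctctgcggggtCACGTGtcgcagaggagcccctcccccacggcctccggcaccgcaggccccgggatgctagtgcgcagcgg

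The copies began 194 and 149 bases before the annotated start in HK2, 185 and 87 bases before it in LDHA, and 81 bases before it in GAPDH. ALDOA had a copy 112 bases before one of its starts, which makes 4 of the 10 genes with a copy, and 2 with more than 1. Of 27305 genes with a window, 8.77% had a copy in at least 1 window and 0.791% had 2 or more in a single window. The enzymes had more windows per gene, and by window 4 of 24 had a copy, against 7.26% of all 35093 windows, and 2 of 24 had 2, against 0.658%. The HK2 window with the copies lies inside the gene, which begins at 75061254 in GENCODE, and upstream of a second annotated start. The window at the first HK2 start had no copy. The only GAPDH window lies inside the gene, which begins at 6643678 in GENCODE, and no window at that beginning was searched. The shorter ACGTG, read on either strand and contained in CACGTG, was in a window of 8 of the 10 genes and of 24.9% of all genes, or in 11 of 24 windows and 21.4% of all windows. A match describes these letters only. No binding was measured.

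The gRNAs were compared with the same windows. Over the 24 windows, the fewest mismatches between any of the 5 uPA gRNAs and a site followed by NGG ranged from 6 (HK2) to 10. The GAPDH window, which lies inside the gene, had 8. The median over all windows was 8, and 9.49% of windows had a site with 6 or fewer. The PLAU promoter had an exact match. Sites outside these windows were not searched, and a count of mismatches does not say where a fusion was bound.

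Together the 10 enzymes made up 1.191% of all TPM in pUC19, 1.021% with dCas9-BFP-EGFP, 1.049% with dCas9-BFP-DNMT1, 0.9041% with dCas9-BFP-DNMT3A and 0.9545% with dCas9-BFP-DNMT3B. The control was therefore above the 4 fusion libraries, whose summed levels ran from 9041 to 10491.6 TPM against 11906.1 TPM. GAPDH alone supplied 45.6% of the sum in pUC19 and 51.76% to 54.07% of it with the fusions. Without GAPDH the sum was 6477 TPM in pUC19 and 4353 to 4819 TPM with the fusions. As a share of reads, the 10 genes took 1.042% (95% Wilson interval 1.039 to 1.045) in pUC19 and from 0.7534% (0.7502 to 0.7565) to 0.8846% (0.8811 to 0.8881) in the fusion libraries. Such intervals cover the sampling of reads only. The totals include the plasmid-encoded domains. The DNMT1, DNMT3A and DNMT3B rows took 3.533%, 3.185% and 5.982% of reads in the library of the matching fusion, and 0.042% or less in pUC19. Their part in the shares of the enzymes was not tested. In bulk RNA, fewer cells with a transcript and less of it per cell cannot be told apart.

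**Figure D1:**
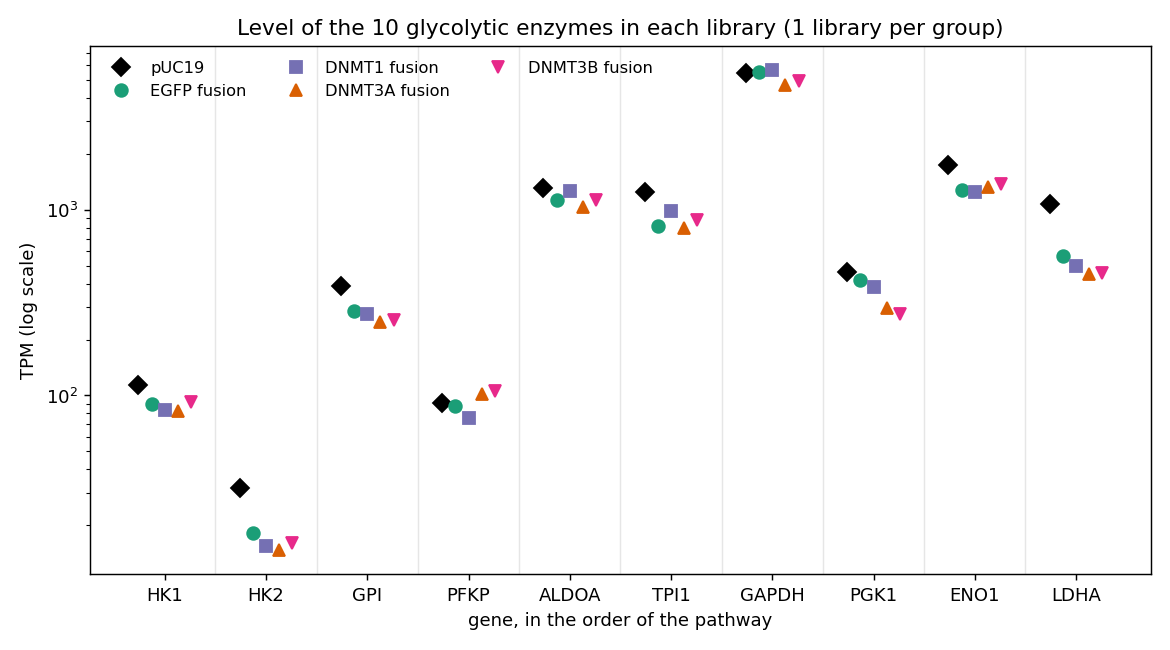
TPM of each enzyme (log scale) in the 5 libraries, 1 point per library, with genes in pathway order. The pUC19 point was the highest for 8 of the 10 genes and lay within the range of the fusions for PFKP and GAPDH.

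The levels were compared library by library. For each pair, a two-sided exact conditional binomial test of the reads was adjusted by Benjamini-Hochberg over every gene that had reads in the pair. Calls needed an adjusted p of 0.001 or less and a fold change of 2 or more on the TPM + 0.1 scale, the thresholds of the study. This test weighs the sampling of reads between 2 libraries and not the spread between transfections. At the read numbers of these genes, small differences pass its p-value, and the fold change decides most calls. Intervals given for a log2 fold change below are exact 95% counting intervals.

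The first step, the phosphorylation of glucose, differed between its isoenzymes. HK1 (chromosome 10, 71029740 to 71161640, plus strand, GRCh37), a widely expressed hexokinase, was at 114.5 TPM in pUC19, 89.8 with EGFP, 83.9 with DNMT1, 82.6 with DNMT3A and 92.4 with DNMT3B. Its log2 fold change against pUC19 lay between -0.47 and -0.31 in the 4 fusions, so HK1 was not called. Within the fusions the levels of HK1 differed by at most 1.12-fold, and neither DNMT3B and EGFP nor DNMT1 and DNMT3A, next to each other in that order, differed beyond counting error.

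HK2 (chromosome 2, 75061254 to 75120486, plus strand), the regulated isoenzyme common in tumour lines, was at 31.6 TPM in pUC19, 18.1 with EGFP, 15.5 with DNMT1, 14.7 with DNMT3A and 15.96 with DNMT3B. The control was highest, and the order of DNMT3B, DNMT1 and DNMT3A was within counting error from one to the next. HK2 was called lower with DNMT1 (log2 fold change -1.02, interval -1.11 to -0.93, adjusted p 2.16e-114, exact test) and DNMT3A (-1.10, interval -1.20 to -1.02, adjusted p 4.02e-144, exact test). The DNMT3B value of -0.98 (-1.08 to -0.89) fell just outside the fold threshold, and the EGFP value of -0.80 (-0.90 to -0.72) further outside. The DNMT1, DNMT3A and DNMT3B values were close to the threshold, so the calls do not separate DNMT3B from DNMT1 and DNMT3A. With DNMT1, the HK2 value was -0.89 under TMM scaling, -0.98 with a pseudocount of 1 TPM and -0.99 in 1 random thinning to the smallest library, and the call was lost under each. In 10 further thinnings, run after the data were seen, it lay between -1.03 and -1.01, and the fold stayed past 2 in all 10.

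GPI (chromosome 19, 34850385 to 34893318, plus strand), which turns glucose 6-phosphate into fructose 6-phosphate, was at 387.3 TPM in pUC19, 285.3 with EGFP, 273.8 with DNMT1, 248.9 with DNMT3A and 253.8 with DNMT3B. The fusions were 1.36 to 1.56 times lower than the control, and DNMT3A and DNMT3B did not differ beyond counting error.

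PFKP (chromosome 10, 3108525 to 3179910, plus strand), the platelet-type phosphofructokinase of the committed step, had another order. It was at 91.1 TPM in pUC19, 87.3 with EGFP, 75.9 with DNMT1, 102.2 with DNMT3A and 106.2 with DNMT3B. The DNMT3A and DNMT3B libraries were above the control (log2 fold changes 0.17 and 0.22), and the DNMT1 library was below it (-0.26). The EGFP value of -0.06 (interval -0.13 to 0.01) did not differ from 0 beyond counting error.

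ALDOA (chromosome 16, 30075485 to 30081778, plus strand), the aldolase that cleaves fructose 1,6-bisphosphate, was at 1318 TPM in pUC19, 1132 with EGFP, 1257 with DNMT1, 1036 with DNMT3A and 1134 with DNMT3B. Its range over the libraries, 1.27-fold, was among the narrowest of the 10, and the DNMT1 difference of -0.07 on the log2 scale turned to 0.06 under TMM scaling. TPI1 (chromosome 12, 6976283 to 6980112, plus strand), which interconverts the products of aldolase, was at 1245 TPM in pUC19, 823.5 with EGFP, 986.1 with DNMT1, 795.2 with DNMT3A and 886.9 with DNMT3B. The TPI1 fold changes, from -0.65 to -0.34, did not reach 2-fold. The pseudogenes TPI1P2 and TPI1P3 were at 2.37 TPM or less in all libraries.

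GAPDH (chromosome 12, 6643678 to 6647540, plus strand), which oxidises glyceraldehyde 3-phosphate, was the 9th most abundant gene in pUC19 by TPM. It was at 5429 TPM in pUC19, 5504 with EGFP, 5672 with DNMT1, 4689 with DNMT3A and 4941 with DNMT3B. The EGFP and DNMT1 libraries were above the control (log2 fold changes 0.02 and 0.06) and the DNMT3A and DNMT3B libraries below it (-0.21 and -0.14). The EGFP direction depended on the scale. It was 0.009 under TMM scaling, and GAPDH took 0.3375% of reads with EGFP against 0.3413% in pUC19. The TPM range of GAPDH was the narrowest of the 10 enzymes, 1.21-fold from lowest to highest.

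PGK1 (chromosome X, 77166236 to 77384792, plus strand), which makes the first ATP of the pathway, was at 459.8 TPM in pUC19, 419.5 with EGFP, 382.0 with DNMT1, 295.4 with DNMT3A and 275.4 with DNMT3B. The EGFP value was 0.13 below the control on the log2 scale, and those of DNMT3A and DNMT3B were -0.64 and -0.74. No fusion library was above pUC19 in PGK1, the gene from which the promoter of the fusion vectors is named. Among the fusions it had the widest range of the 10 enzymes, 1.52-fold.

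ENO1 (chromosome 1, 8921059 to 8939249, minus strand), the enolase found in most tissues, was at 1755 TPM in pUC19, 1284 with EGFP, 1246 with DNMT1, 1329 with DNMT3A and 1384 with DNMT3B. The 4 fusions lay within 1.11-fold of each other, the closest of all members, and were 1.27 to 1.41 times lower than the control. The antisense gene ENO1-AS1 was at 0.361 to 1.54 TPM, and the counting is not stated to use strand.

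LDHA (chromosome 11, 18416107 to 18429972, plus strand), the A subunit of lactate dehydrogenase, which reduces pyruvate to lactate, had the widest range of the 10. It was at 1073 TPM in pUC19, 563.0 with EGFP, 499.0 with DNMT1, 448.9 with DNMT3A and 456.3 with DNMT3B. The control was at least 1.91 times each fusion, and DNMT3A and DNMT3B did not differ beyond counting error. LDHA was called lower with DNMT1 (log2 fold change -1.11, interval -1.13 to -1.08), DNMT3A (-1.26, -1.29 to -1.23) and DNMT3B (-1.23, -1.26 to -1.21), with adjusted p-values of the exact test too small to be represented. The EGFP value was -0.93 (-0.96 to -0.90) and missed the fold threshold. With DNMT1, the value was -0.98 under TMM scaling, and that call was lost. Reads covered 89.9% of the LDHA transcript in pUC19, 88.5% with EGFP and 85.9% with DNMT1, but 76.5% with DNMT3A and 76.0% with DNMT3B. The part of this coverage in the result was not tested.

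**Figure D2:**
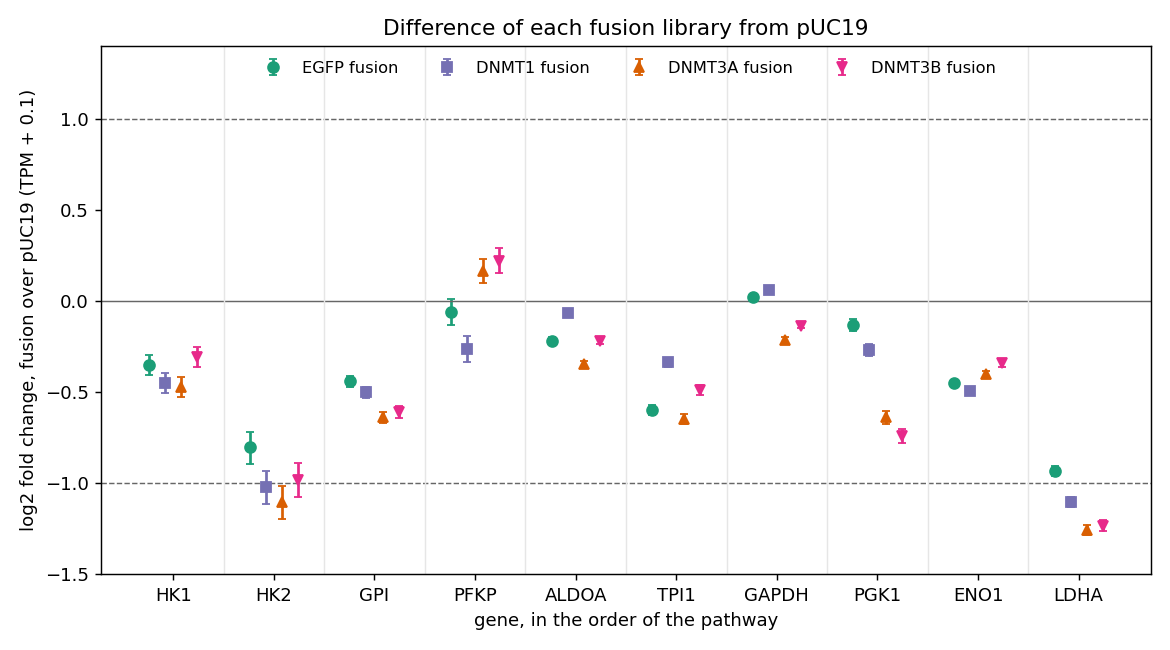
Log2 fold change of TPM + 0.1 of each fusion library over pUC19 for the 10 enzymes, with exact 95% counting intervals, and dashed lines at a 2-fold difference. LDHA lay at or near the lower line in all 4 fusions, and HK2 in all but EGFP (-0.80). PFKP and GAPDH lay on both sides of 0.

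In counts of calls, the DNMT1 library differed from pUC19 in 2 of the 10 enzymes (HK2 and LDHA, both lower), and 5.16% of all 19022 genes tested were called. The DNMT3A library also differed in HK2 and LDHA, with 9.36% of all genes called. The DNMT3B library differed in LDHA, with 8.76% called, and the EGFP library in none, with 5.70% called. The 4 comparisons share the pUC19 library. When a coefficient of variation of 0.2 between libraries was assumed in the edgeR exact test, none of the 10 enzymes was called in any of them, and between 32 and 131 genes in all were called per comparison. The called enzymes were a small part of the 10. The median log2 fold change of the 10 was -0.40 with EGFP, -0.39 with DNMT1, -0.55 with DNMT3A and -0.42 with DNMT3B, compared with -0.003, -0.15, -0.06 and -0.05 over all genes tested. Over the genes with a mean of at least 10 TPM, the DNMT1 median was -0.13 on TPM and -0.001 under TMM scaling. On that scale the median of the 10 was -0.26 with DNMT1.

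Libraries were next compared as groups that do not overlap. For HK1, HK2, GPI, ALDOA, TPI1, PGK1, ENO1 and LDHA, 8 of 10, all 4 fusion libraries were below pUC19, a pattern shown by 32.3% of the 9238 genes with a mean of at least 10 TPM. For 0 of 10 were all fusions above it, a pattern of 25.1% of those genes. Under TMM scaling ALDOA no longer showed the pattern and 7 of 10 did, against 29.3% of genes. With 1 control library against 4, an exact permutation test cannot give a p-value below 0.2, and none was computed.

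To set the difference from pUC19 against the spread among the libraries that received a fusion, these 4 were set against pUC19 in an edgeR quasi-likelihood fit of all genes. The fusions are not replicates of 1 construct, so their spread contains the differences between them. LDHA was called lower (log2 fold change -1.07 ± 0.18 (SE), adjusted p 0.0444), the only one of the 10 enzymes, while 0.737% of the 16001 genes tested were called. HK2 came closest among the others (-0.92 ± 0.19, adjusted p 0.0627 in edgeR). It was called as well after a GC content and length correction (adjusted p 0.043), without the filter on low counts (0.0427) and in DESeq2 (0.00196). The adjusted p of LDHA rose to 0.0744, 0.0514 and 0.0637 in edgeR when the DNMT3A, DNMT3B or EGFP library was left out, and the call was lost each time, while the log2 fold change stayed between -1.13 and -1.03. The adjusted p was 0.0482 in edgeR without DNMT1. GPI (-0.49 ± 0.18, adjusted p 0.20) and TPI1 (-0.46 ± 0.20, adjusted p 0.278) followed in the edgeR fit. GAPDH was at -0.01 ± 0.25, and PFKP at 0.08 ± 0.21.

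The fusions were then compared with each other under the same gRNAs. None of the 10 enzymes was called between DNMT1 and EGFP (1.44% of all genes called), between DNMT3A and EGFP (3.97%), between DNMT3B and EGFP (3.50%), or between DNMT3A and DNMT3B (0.215%). PGK1 was the enzyme furthest from EGFP in the DNMT3A (log2 fold change -0.51, interval -0.55 to -0.47) and DNMT3B libraries (-0.61, -0.65 to -0.57), neither of which reaches 2-fold. Between DNMT3A and DNMT3B, the largest log2 difference among the 10 was -0.16 (HK1, -0.23 to -0.10, and TPI1, -0.19 to -0.13). GPI, PFKP and LDHA did not differ there beyond counting error.

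In an edgeR fit of DNMT3A and DNMT3B against DNMT1 and EGFP, PGK1 was called lower (-0.54 ± 0.12 (SE), adjusted p 0.0212), 1 of 10 enzymes, with 11.0% of the 15332 genes tested called. PGK1 fell from a mean of 400.7 to 285.4 TPM. PFKP (0.30 ± 0.12, adjusted p 0.128), LDHA (-0.28 ± 0.11, adjusted p 0.136) and GAPDH (-0.27 ± 0.17, adjusted p 0.331) were next in size in this edgeR fit and were not called. The PGK1 call was lost without the DNMT3A library (-0.60, adjusted p 0.251 in edgeR) or without the DNMT3B library (-0.49, adjusted p 0.295), fits that call 18 and 53 genes in all, while the fold change stayed about as large. Without EGFP, 4 enzymes were called (PFKP, ALDOA, TPI1 and PGK1), with 24.7% of all genes called. Without DNMT1, LDHA and PGK1 were called, with 22.5% of all genes called. Both DNMT3A and DNMT3B were below both of the other fusions for 4 of 10 enzymes (GPI, GAPDH, PGK1 and LDHA), as for 21.9% of genes with a mean of at least 10 TPM. They were both above for PFKP and ENO1, 2 of 10, as for 39.0% of such genes. In TMM-scaled counts they were both above for 1 of 10, PFKP, as for 35.7% of such genes. On that scale they were both below for 5 of 10, with HK2 added, as for 26.9%.

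**Figure D3:**
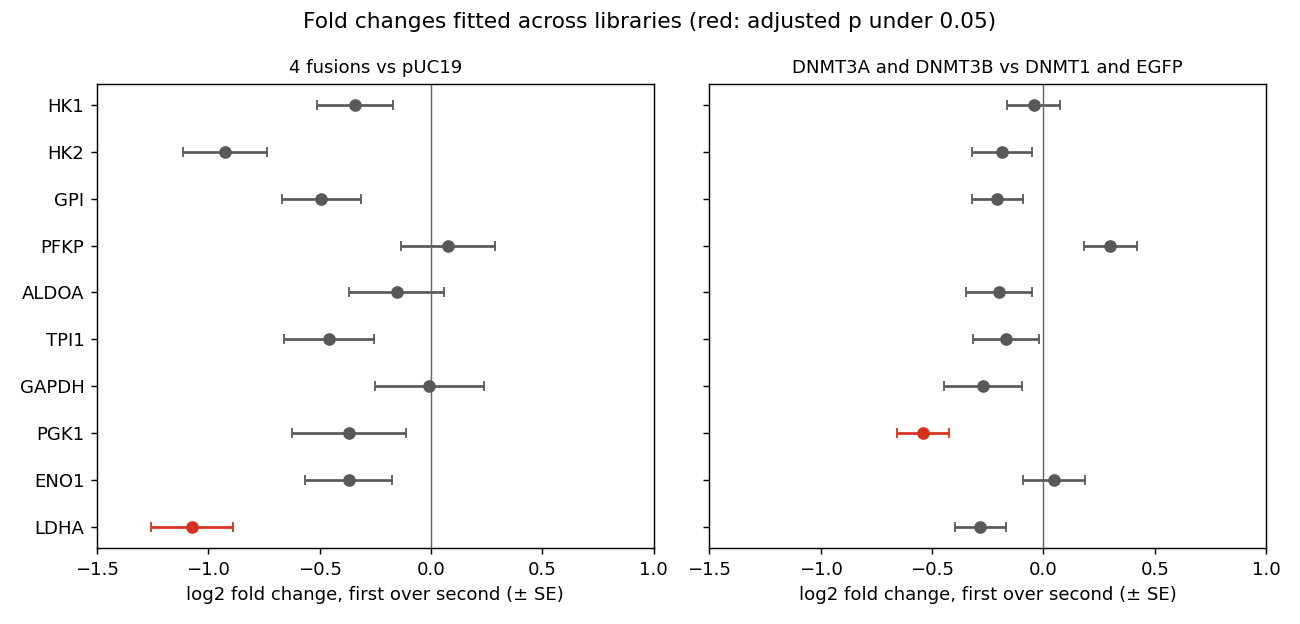
Log2 fold change ± SE of the 10 enzymes in the edgeR fits of the 4 fusions against pUC19 (left) and of DNMT3A and DNMT3B against DNMT1 and EGFP (right). LDHA on the left (-1.07) and PGK1 on the right (-0.54) were the enzymes with an adjusted p under 0.05.

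The remaining enzymes of the pathway were counted from a list of 20 isoenzymes and other glycolytic genes. Against pUC19, GAPDHS was called lower in all 4 fusions and PFKL with DNMT3B. This made 1 of 19 tested with DNMT1 (5.16% of all genes called), 1 of 19 with EGFP (5.70%), 1 of 20 with DNMT3A (9.36%) and 2 of 20 with DNMT3B (8.76%), so these counts do not set the list apart from all genes. In the edgeR fit of the 4 fusions against pUC19, neither GAPDHS (-2.30 ± 0.47, adjusted p 0.0631) nor PFKL (-0.62 ± 0.30, adjusted p 0.316) was called. GAPDHS encodes a form of GAPDH known from sperm. It had 93 reads in pUC19, 19 with EGFP, 11 with DNMT1, 10 with DNMT3A and 14 with DNMT3B. PFKL, the liver-type phosphofructokinase, was at 96.5 TPM in pUC19, 73.5 with EGFP, 72.9 with DNMT1, 51.2 with DNMT3A and 43.2 with DNMT3B, and fell by 0.69 ± 0.14 on the log2 scale in DNMT3A and DNMT3B against DNMT1 and EGFP (adjusted p 0.0172, edgeR fit). The DNMT3A and DNMT3B libraries were thus the lowest of the 5 in PFKL and the highest in PFKP.

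The steps between ENO1 and LDHA and those without a listed member were as follows. PKM, the main pyruvate kinase of these cells, was at 1178 TPM in pUC19 and at 871.2 to 976.3 TPM with the fusions, and was not called. PGAM1, the phosphoglycerate mutase, was at 762.8 TPM in pUC19 and at 583.0 to 767.8 TPM with the fusions, and the control lay inside that range. PGAM4 is near-identical to PGAM1 and its 3 to 14 reads are uncertain. HK3, HKDC1, PGK2 and PKLR, which encode other isoenzymes, were under 0.5 TPM in all 5 libraries.

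The balance within pairs of isoenzymes was described by the share of one of them in the TPM of the pair, for pairs chosen after their values were seen. HK2 made up 21.6% of HK1 and HK2 in pUC19 (95% Wilson interval 20.9 to 22.3), 16.8% with EGFP, 15.6% with DNMT1, 15.1% with DNMT3A and 14.7% with DNMT3B. LDHA made up 41.7% of LDHA and LDHB in pUC19 (41.4 to 42.0), 30.8% with EGFP, 28.6% with DNMT1, 28.4% with DNMT3A and 29.1% with DNMT3B. LDHB itself, the subunit abundant in oxidative tissues, was at 1500 TPM in pUC19 and at 1112 to 1265 TPM with the fusions. In both pairs the control was above the 4 fusions, beyond the counting intervals.

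The enolase pair ran the other way. ENO2, the neuron-specific enolase, made up 1.65% of ENO1 and ENO2 in pUC19 (1.55 to 1.75), 3.26% with EGFP, 3.76% with DNMT1, 3.96% with DNMT3A and 4.08% with DNMT3B. Its level was 29.4 TPM in pUC19 and 43.3 to 58.8 TPM with the fusions, and it was not called in any comparison. Its largest log2 fold change was 0.998 with DNMT3B, just outside the threshold.

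The phosphofructokinase pair followed the other split of the libraries. PFKL made up 51.5% of PFKL and PFKP in pUC19 (50.4 to 52.5), 45.7% with EGFP (44.4 to 47.0) and 49.0% with DNMT1 (47.7 to 50.3), but 33.4% with DNMT3A (32.2 to 34.6) and 28.9% with DNMT3B (27.7 to 30.1). The sum of the 3 phosphofructokinases PFKL, PFKM and PFKP was 254.1 TPM in pUC19 and 192.6 to 218.4 TPM with the fusions, a narrower range than that of PFKL alone. ALDOC supplied between 0.777% and 1.35% of ALDOA and ALDOC, with the highest value in pUC19.

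**Figure D4:**
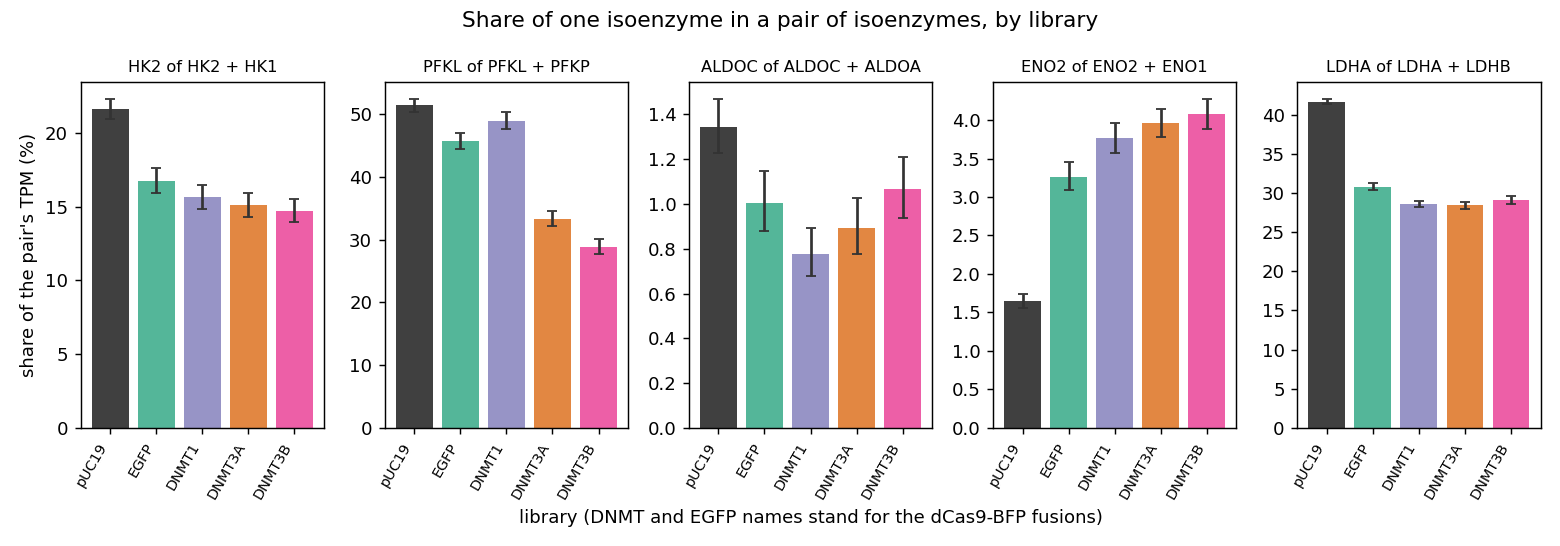
Share (%) of one isoenzyme in the summed TPM of a pair, with 95% Wilson intervals of the reads carried to the TPM scale, 1 bar per library and a separate axis from 0 for each pair. HK2, LDHA and ALDOC were highest in pUC19, ENO2 was lowest there (1.65%), and PFKL was lowest with DNMT3A (33.4%) and DNMT3B (28.9%).

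Summed over their isoenzymes, the enolases were at 1788 TPM in pUC19 and at 1297 to 1446 TPM with the fusions. The lactate dehydrogenases were at 2584 TPM in pUC19 and at 1574 to 1838 TPM with the fusions. Both sums were highest in the control.

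Genes around the pathway were counted from 6 further lists, in comparisons that called between 0.215% and 11.0% of all genes tested. Of 5 genes that set fructose 2,6-bisphosphate, the activator of phosphofructokinase, PFKFB2 was called lower with DNMT3B against pUC19 (8.76% of all genes called). In the edgeR fit of DNMT3A and DNMT3B against DNMT1 and EGFP, PFKFB2 fell (-0.78 ± 0.16, adjusted p 0.0172) and PFKFB3 rose (0.62 ± 0.15, adjusted p 0.0325). PFKFB3 was the most abundant of the list, at 38.7 TPM in pUC19, 30.8 with EGFP, 25.6 with DNMT1, 39.5 with DNMT3A and 50.04 with DNMT3B. None of 6 glucose and lactate transporters was called in any comparison, and SLC16A1, a lactate and pyruvate carrier and the most abundant of them, was at 143.8 to 204.8 TPM. None of 7 enzymes of the pentose phosphate pathway was called either, and TKT, the most abundant, was at 376.1 TPM in pUC19 and at 255.1 to 294.7 TPM with the fusions. The median log2 fold change of these 7 against pUC19 was -0.21 with EGFP, -0.44 with DNMT1, -0.56 with DNMT3A and -0.53 with DNMT3B.

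Of 13 genes for the entry of pyruvate into mitochondria and its oxidation, only MPC1 was called against pUC19. It was lower with DNMT3A (9.36% of all genes called) and DNMT3B (8.76%), so these counts do not set the list apart. MPC1, a subunit of the mitochondrial pyruvate carrier, was at 104.2 TPM in pUC19, 58.6 with EGFP, 54.5 with DNMT1, 35.8 with DNMT3A and 41.3 with DNMT3B, and it also fell in the edgeR fit between the fusions (-0.61 ± 0.15, adjusted p 0.0326). PDK3, a kinase that inhibits pyruvate dehydrogenase, was at 12.6, 13.7 and 12.9 TPM in pUC19, EGFP and DNMT1 but at 6.40 and 8.23 TPM with DNMT3A and DNMT3B (-0.91 ± 0.15, adjusted p 0.00921, edgeR fit). PDK3 was called lower, and the little expressed PDK4 higher, with DNMT3A against EGFP (3.97% of all genes called). PDHB was the most abundant of the list, at 133.0 to 184.7 TPM, and was not called.

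Of 7 gluconeogenic genes, PCK2 alone was called. This mitochondrial enzyme makes phosphoenolpyruvate, and was at 76.8 TPM in pUC19, 126.5 with EGFP, 86.8 with DNMT1, 52.6 with DNMT3A and 44.9 with DNMT3B. It was called lower with DNMT3A (log2 fold change -1.26) and DNMT3B (-1.49) against EGFP, where 3.97% and 3.50% of all genes were called. In the edgeR fit between the fusions, which called 11.0% of genes, PCK2 fell by 1.17 ± 0.17 on the log2 scale (adjusted p 0.00643).

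Of 3 regulators, MYC, a transcription factor known to drive many glycolytic genes, was called lower in all 4 fusions, at 386.8 TPM in pUC19 and 65.5 to 88.2 TPM with the fusions (edgeR fit -2.29 ± 0.20, adjusted p 0.00936). TXNIP, which restrains glucose uptake, was called higher with EGFP and was at 44.7 TPM in pUC19 and 62.4 to 94.2 TPM with the fusions. Of all genes tested, 5.70% were called with EGFP, 5.16% with DNMT1, 9.36% with DNMT3A and 8.76% with DNMT3B. HIF1A, the hypoxia-inducible factor subunit, was at 55.3 to 70.5 TPM with the fusions around 63.0 TPM in pUC19. The part of these regulators in the levels of the enzymes was not tested.

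The genes whose pattern over the 5 libraries was most like that of LDHA were MIOS, EIF1AX and HMGCS1, with Euclidean distances of 0.0466, 0.0762 and 0.104 between centred log2(TPM + 0.1) values, among 9237 candidates with a mean of at least 10 TPM. MIOS was at 32.0 TPM in pUC19 and 12.8 to 16.3 TPM with the fusions. HK2 was the one gene of the lists among the 20 nearest. This likeness rests on 5 libraries, of which pUC19 stands apart.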

How the data were processed

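Poly(A) RNA of 5 HEK293T libraries, 1 per group, was fragmented, and cDNA was amplified and sequenced by the authors, who aligned reads with tmap to RefSeq transcripts of hg19 (GRCh37) and kept unique alignments. The tmap version is not given in the sources used here. The deposited read counts per gene are raw. The deposited TPM values were made by the authors from counts and gene lengths, and recomputing them gave equal values (relative difference at most 2e-14). The deposited coverage in percent per gene was read as the covered part of the transcript, which the authors did not define. Genes absent from a table were set to 0. Unique alignment lowers genes with near-identical copies.

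Groups were taken from the sample titles. Read counts of 8 pairs of libraries were compared by the exact conditional binomial test, two-sided (scipy 1.17.1), whose p-values refer to shares of reads, while fold changes are ratios of TPM + 0.1 and understate changes of low genes. The edgeR fits (version 4.0.16, R 4.3.3) used filterByExpr, TMM scaling and a quasi-likelihood F-test at an adjusted p under 0.05. Standard errors were derived from the fold change and the F statistic. Alternatives were TMM scaling, a pseudocount of 1 TPM, thinning to the smallest library, a fold of 1.5, an adjusted p of at most 0.05, a minimum of 1 TPM and, in the exact test of edgeR, an assumed coefficient of variation of 0.2. For the fits they were no filter, median-ratio size factors, DESeq2 (version 1.42.0), leaving out each fusion, and a loess offset (span 0.3) on GC content and length, with a GC value for 89.25% of genes.

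The enzymes and lists were chosen with earlier results of these data known. Named were all members, the listed genes that were called, most abundant or the main isoenzyme of a step, the 3 genes most like the member with the widest range, and PLAU and the methyltransferases as a check of the labels. TIGAR was matched by gene ID. Some genes of the pathway list are not reported by name here. Positions are from GENCODE v44 lifted to GRCh37. The exact test and both fits were checked on simulated data with known changes in 200 genes. The exact test, for DNMT1 against pUC19, recovered 199 of the 200 with 0 false calls. The fit against pUC19 recovered 200 with 7 false calls, and the fit between the fusions 200 with 8. Recovery at the spread between these libraries and at the fold changes of the enzymes was not tested.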

Additional observations from a re-analysis of the deposited data

Results flagged for a closer look

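Of 62 listed genes tested in the edgeR fit of DNMT3A and DNMT3B against DNMT1 and EGFP, 7 were called, PGK1 and 6 genes around the pathway. This was 11.3%, next to 11.0% of all genes in that fit, so the count does not set these genes apart. The log2 fold change was -0.54 for PGK1, -0.69 for PFKL, -0.78 for PFKFB2, 0.62 for PFKFB3, -0.61 for MPC1, -0.91 for PDK3 and -1.17 for PCK2. All 7 were past an adjusted p of 0.05 with all 4 fusion libraries in the fit. Without the DNMT3A or the DNMT3B library, an arm had 1 library and few genes were called in all. A batch shared by the DNMT3A and DNMT3B libraries cannot be told apart from the constructs.

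PFKP and GAPDH lay on opposite sides of pUC19. PFKP was above it in both DNMT3A and DNMT3B and below it in DNMT1 and EGFP, but EGFP did not differ from pUC19 beyond counting error. The PFKP difference between the pairs was 0.30 on the log2 scale (adjusted p 0.128, edgeR). GAPDH was below pUC19 in the first pair and, on TPM, above it in the other, with a difference of -0.27 between the pairs (adjusted p 0.331, edgeR). Neither passed the test.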

How the results depend on the processing

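Of 80 recomputed counts of called or non-overlapping enzymes, 59 stayed within 1.5 times the reported count. These include counts of 0 that stayed 0, as in most settings for the pairs of fusions. Against pUC19, the assumed coefficient of variation of 0.2 gave 0 enzymes for DNMT1, DNMT3A and DNMT3B. For DNMT1, TMM scaling gave 0 (4.66% of all genes called). A pseudocount of 1 TPM gave 1 (LDHA, with 2.84% of all genes called), as did thinning to the smallest library (4.86%). A fold threshold of 1.5 gave 5 enzymes for DNMT3A (22.5% of all genes called), 4 for DNMT3B (21.8%), 3 for EGFP (16.2%), and 1 (PGK1) for DNMT3B against EGFP (11.6%). In the fit of 4 fusions against pUC19, DESeq2, no filter and the GC and length offset each gave 2 (HK2 and LDHA), and leaving out 1 fusion gave 0 to 1. In the fit between the fusions, leaving out 1 library gave 0 to 4 enzymes. TMM-scaled counts, chosen after seeing the data, left 1 enzyme with DNMT3A and DNMT3B above DNMT1 and EGFP (35.7% of genes). They put 5 enzymes below (26.9% of genes). Directions turned for small differences. Under TMM scaling, ALDOA was at 0.060 for DNMT1 against pUC19, and HK1 (0.042), GPI (0.080), PGK1 (0.004) and ENO1 (0.096) turned for DNMT1 against EGFP. With the GC and length offset, PFKP was at -0.006 against pUC19 and ENO1 at -0.009 between the fusions. Leaving out 1 library, GAPDH ranged from -0.091 to 0.045 against pUC19 and between the fusions TPI1 ranged from -0.351 to 0.045 and HK1 from -0.118 to 0.030. The cause was not tested. DESeq2 called 1041 genes in the first fit against 118 in edgeR, and no filter called 252. In every fit against pUC19 the control arm has 1 library, and leaving out a library between the fusions also leaves an arm with 1. That library is assumed to vary like the others. No paired analysis was possible because each group has 1 library. Each enzyme had at least 1278 reads per library. At that depth the counting interval of HK2 with DNMT1 still spans the 2-fold line, and the single library per group leaves the spread between transfections unmeasured.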
